A study of Homo sapiens with 22 samples.

Results

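Binding of estrogen receptor alpha (ESR1) around the progesterone receptor gene PGR was described in Ishikawa cells, an endometrial adenocarcinoma line, from the peak lists of a chromatin immunoprecipitation sequencing (ChIP-seq) study. The locus was taken as all peaks that overlapped the window chr11:100850000-101250000 of the hg19 build, which is 400 kb wide and stands for PGR and its upstream region. It held 111 of the 356467 peaks in the 20 lists. Peaks that overlapped by at least 1 bp in any list were merged, which gave 13 of the 93612 merged sites of the whole series, numbered here from the lowest to the highest coordinate.

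PGR encodes a ligand-activated nuclear receptor through which progesterone acts on the endometrium, and the gene is a classical target that estrogen induces through ESR1. ESR1 is itself a nuclear receptor: estradiol (E2) binds its ligand-binding domain, and the receptor then occupies enhancers and promoters, often at a palindromic sequence called the estrogen response element. D538G is a substitution in that ligand-binding domain that is found in tumours, and the receptor that carries it is known for activity without hormone. The study asked how this substitution affects where the receptor binds in the genome.

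All cells were Ishikawa clones with a FLAG tag on ESR1, and every group was precipitated with the same antibody against the tag, so only tagged receptor was measured. There were 2 wild-type and 3 D538G clones, with 2 replicates per clone and treatment. Before treatment all clones spent at least 5 days in medium free of phenol red with charcoal-stripped serum. They then received either 10 nM E2 or the solvent DMSO at 0.1% for 1 h. The groups were wild type with DMSO (4 libraries), wild type with E2 (4), D538G with DMSO (6) and D538G with E2 (6). Input libraries (2) were not used here. The labels call the lines clonal and do not say how independent the replicates of a clone are, so the p-values measure the spread between these libraries.

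The lists held 45 to 54903 peaks, and the reads behind them are unknown. The wild-type DMSO lists held 51, 29118, 45 and 1080 peaks, so 3 of these 4 lists were shorter than every list of the other groups. Whether a short list reflects few reads, weak enrichment or few bound sites cannot be told apart from the lists. The peak names in the list labelled D538G E2 clone 2 replicate 1 contain "Ctl", as do those of its DMSO partner and of no other E2 list. That library was kept under its label, and the main results were repeated without the pair.

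The gene table at hand, RefSeq on GRCh38.p14, places PGR on the minus strand between ARHGAP42 and TRPC6, the latter a gene for a cation channel. On that strand, positions upstream of PGR have higher coordinates than the gene. The RefSeq table holds 3 records of PGR, and only the one with the outermost start was searched. The 250 bases before its start are shown, since a reader would look first at a promoter for an estrogen response element. They read 5′ to 3′ on the gene's strand, with the GC box in capitals.
PGR: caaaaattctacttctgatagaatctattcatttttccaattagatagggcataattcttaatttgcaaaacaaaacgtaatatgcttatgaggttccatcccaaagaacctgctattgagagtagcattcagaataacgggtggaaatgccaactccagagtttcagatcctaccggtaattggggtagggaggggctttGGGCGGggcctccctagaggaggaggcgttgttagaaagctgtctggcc
On either strand these bases held no full estrogen response element (GGTCANNNTGACC), no single arm of it (GGTCA, which the full element contains) and no AP-1 element (TGANTCA). The full element occurred in 0.0399% of the 35116 RefSeq promoter windows of this length, the single arm in 32.6% and the AP-1 element in 6.57%. The GC box (GGGCGG), a sequence known to be bound by Sp1 family factors, occurred 1 time and began 49 bases before the start. A GC box was present in 42.6% of the promoter windows. These coordinates belong to a build other than that of the peaks, so the promoter was not placed among the sites, and the sites were not assigned to exons, introns or promoters.

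The 6 sites with peaks in the most libraries held 91 of the 111 peaks and carried most of what follows. Site 1 was chr11:100870187-100871304 with peaks in 15 of 20 libraries, and site 2 was chr11:100904485-100905500 with peaks in 16. Site 5 at chr11:100973614-100974178 and site 6 at chr11:100997895-101000645 each had peaks in 10 libraries. Site 10 at chr11:101132206-101133654 and site 11 at chr11:101169387-101170930 each had peaks in 13. The other 7 sites held 20 peaks, and 3 of the 7 were seen in 1 library.

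**Figure D1:**
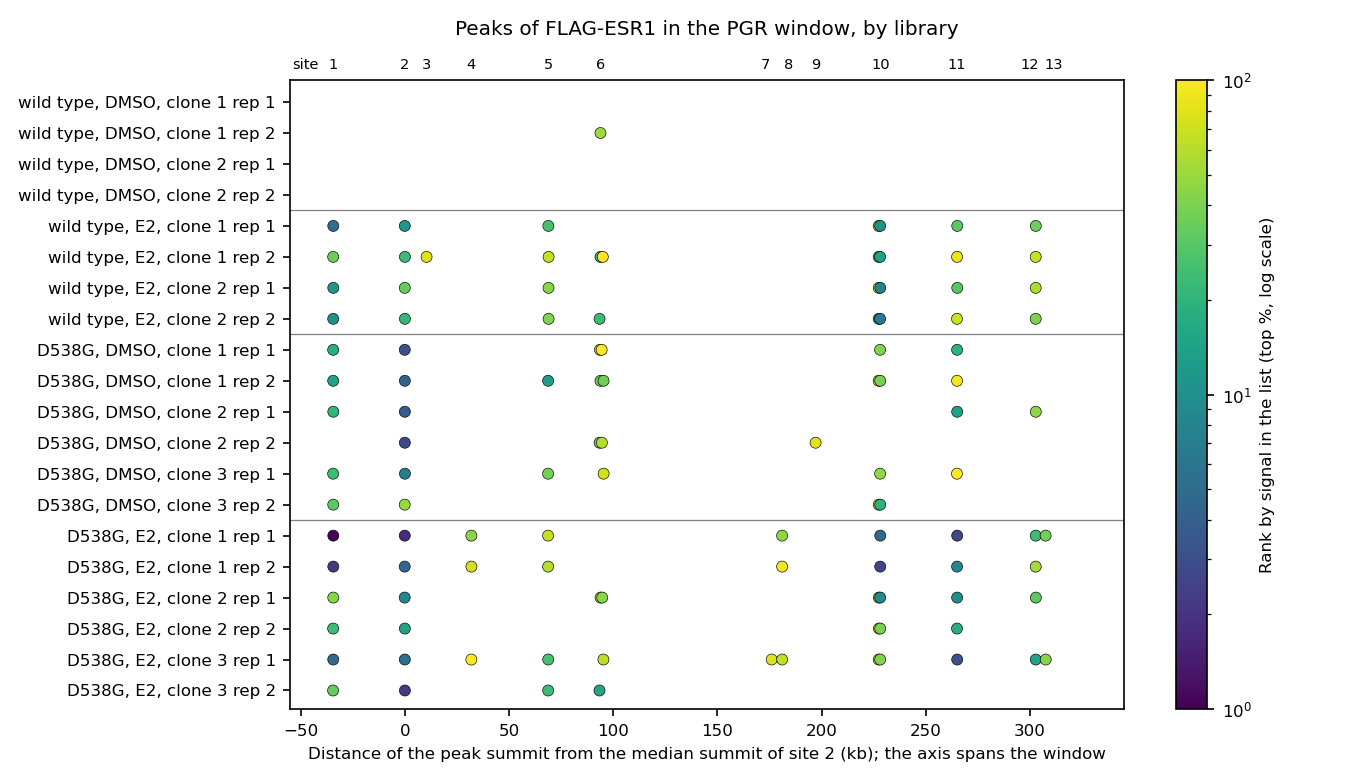
Each point is 1 peak of FLAG-tagged ESR1 in the 400 kb window, placed by the distance of its summit from the median summit of site 2 (x axis, kb) and by library (y axis, grouped by genotype and treatment). Colour gives the peak's rank by signal within its own list (top percent, log scale), and the wild-type DMSO rows hold 1 peak in all, whereas every row of the other groups holds at least 4.

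Across the genome, windows of the same width tiled from the start of each chromosome had a median of 4 merged sites. The PGR window had 13, and 23.9% of the 7647 windows had at least as many. Of its sites, 6 had peaks in at least 10 libraries, against a median of 0, and 3.07% of windows had at least 6. This is a description of a window that was chosen for PGR and carries no test.

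The first question was what E2 did at the locus with wild-type receptor. Without hormone, wild-type ESR1 had almost no peaks around PGR: the 4 DMSO libraries held 0, 1, 0 and 0 window peaks. With E2 the same clones held 7, 10, 7 and 8. The single DMSO peak lay in site 6, at rank 14460 of the 29118 peaks of its list, which is the top 49.7%. The number rose from 0.25 ± 0.5 (SD, n = 4) to 8 ± 1.41 (SD, n = 4), and the groups did not overlap. The difference of 7.75 peaks had a two-sided exact permutation p of 0.0286, the smallest that 4 against 4 libraries allow, and 0.0476 after Benjamini-Hochberg adjustment over the 5 comparisons of peak numbers. E2 was higher in 4 of 4 pairs of the same clone and replicate. Pairing the libraries gave p = 0.125 by exact permutation, which is the smallest that 4 pairs allow.

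Sites 1, 2, 5, 10 and 11 were each present in 4 of 4 wild-type E2 libraries and 0 of 4 DMSO libraries. Site 12 at chr11:101207447-101208080, named here after its values were seen, followed the same pattern. Site 6 differed: it had peaks in 2 of 4 E2 libraries and 1 of 4 DMSO libraries. By Fisher's exact test on the number of libraries with a peak, 6 of the 7 sites tested reached an unadjusted p of 0.0286, against 9.34% of the 29233 regions tested in the genome. None passed after adjustment over all regions (adjusted exact p = 0.306). The DMSO list of wild-type clone 1 replicate 2 is the one long list in its group, and it had no peak at sites 1, 2, 5, 10, 11 and 12. It held 29118 peaks, and the E2 lists of replicate 2 held 35344 and 31108. The part of list length was not tested. With the 1000 strongest peaks of each list the difference fell to 1.25 peaks and was no longer called. Without the 2 lists of under 100 peaks it was 7.5 with an adjusted exact p of 0.111. The unadjusted exact permutation p there was 0.0667, the smallest that 4 against 2 libraries allow, so that alternative could not pass. The adjusted p-values over the 21 alternatives of this result ran from 0.0476 to 0.536.

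**Figure D2:**
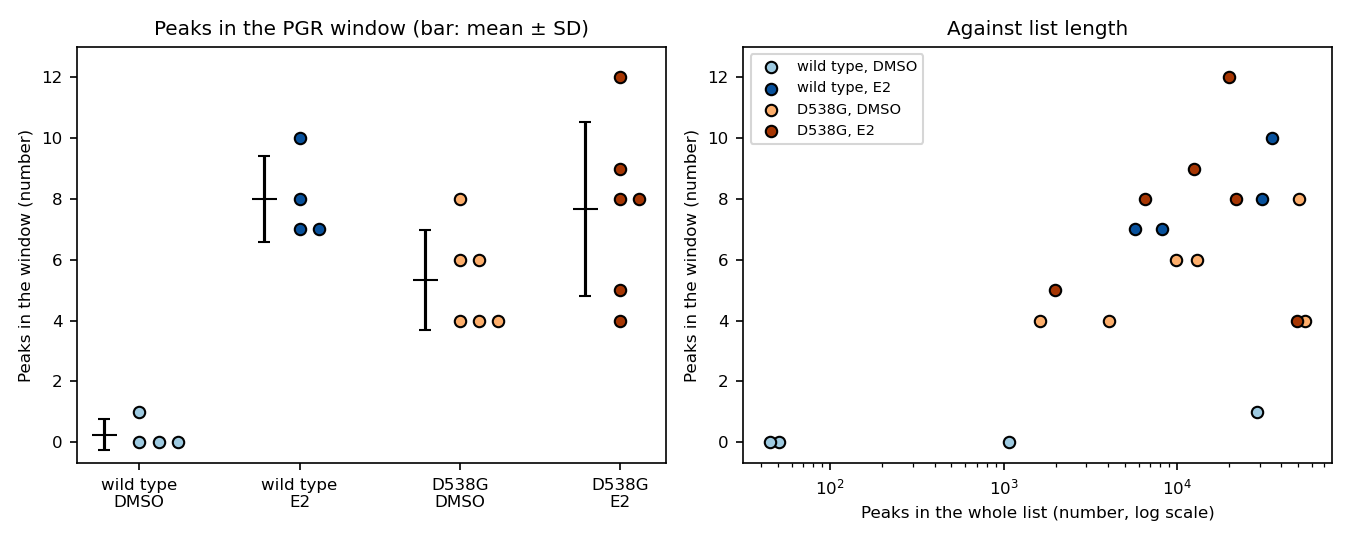
Left, the number of peaks in the PGR window (y axis) for each library (points) by genotype and treatment, with bars for mean ± SD. Right, the same numbers against the number of peaks in the whole list (x axis, log scale). The wild-type DMSO list of 29118 peaks holds 1 window peak, and the D538G DMSO lists of 1619 and 54903 peaks hold 4 each.

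The next question was whether D538G receptor bound the locus without estrogen. It did so in every library: the 6 D538G DMSO lists held 6, 8, 4, 4, 6 and 4 window peaks. The mean was 5.33 ± 1.63 (SD, n = 6), against 0.25 ± 0.5 (SD, n = 4) in wild type under DMSO. The genotypes did not overlap. The difference of 5.08 peaks had an exact two-sided permutation p of 0.00476, the smallest that 6 against 4 libraries allow, and an adjusted p of 0.0238. As a percentage of the list, the window held 0.00729% to 0.247% of the D538G peaks and 0% to 0.00343% of the wild-type peaks. These ranges did not overlap either, but the difference in means was not called (adjusted exact permutation p = 0.167).

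Site 2 was the site that separated the genotypes most fully under DMSO, with peaks in 6 of 6 D538G libraries and 0 of 4 wild-type libraries (Fisher's exact p = 0.00476, adjusted p = 0.585). Site 1 had peaks in 5 of 6 D538G libraries (Fisher's exact p = 0.0476), and sites 10 and 11 in 4 of 6 each (exact p = 0.0762). Sites 5 and 6 were present in 2 and 4 of 6 D538G libraries. Thus 2 of the 6 sites tested passed unadjusted, against 3.57% of the 32172 regions tested, and none passed after adjustment. The count was 4 without D538G DMSO clone 2 replicate 2, a list of 54903 peaks in which sites 1, 5, 10 and 11 had no peak. The count was 3 without the clone 2 replicate 1 pair whose peak names disagree with its label, and the difference in peak number without that pair was 5.35 (adjusted exact permutation p = 0.0397). The count of sites fell to 1 under the replicate block, which here compared genotypes within each replicate number (site 1, exact p = 0.06). It fell to 1 with the 5000 strongest peaks of each list, to 1 without the 2 wild-type lists of under 100 peaks and to 0 with the 1000 strongest.

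List length moved with this comparison as well, since the D538G DMSO lists held 1619 to 54903 peaks. With the 1000 strongest peaks of each list the difference fell to 1.33 peaks and was no longer called. Without the 2 wild-type lists of under 100 peaks it was 4.83 (adjusted exact permutation p = 0.0893). The unadjusted p there was 0.0357, the smallest that 6 against 2 libraries allow, so that alternative could not pass after adjustment. Over the 24 alternatives of this result the adjusted p-values ran from 0.0119 to 0.536. The part of list length in the difference was not tested beyond these alternatives.

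The sites that D538G receptor held without estrogen were compared with those that wild-type receptor held with it. Taking sites with peaks in at least 2 libraries of a group, 6 of 6 D538G DMSO sites were also wild-type E2 sites. They made up 85.7% of the 7 wild-type E2 sites. The one left over was site 12, which 1 of 6 D538G DMSO libraries held. Over all regions of the genome, 73.7% of the 26540 D538G DMSO regions were wild-type E2 regions, and the shared regions made up 73.5% of the 26600 wild-type E2 regions. With only 6 and 7 sites, no test of the share at PGR was made, and with the 1000 strongest peaks of each list it was 50% of 2 sites.

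In D538G clones the number of window peaks with E2 did not differ from that with DMSO beyond the spread between libraries. The 6 E2 lists held 9, 8, 8, 5, 12 and 4 window peaks, a mean of 7.67 ± 2.88 (SD, n = 6). Under DMSO the mean was 5.33, and the groups overlapped. The difference of 2.33 peaks gave an exact permutation p of 0.143 and an adjusted p of 0.179. It was 4.33 peaks within replicate number 1 and 0.333 within replicate number 2, and 1.47 without D538G E2 clone 3 replicate 1. E2 was higher in 4 of 6 pairs and equal in 2, and the 2 equal pairs were clone 1 replicate 2 and clone 3 replicate 2. Pairing the libraries gave p = 0.125 by exact permutation, the same value as in wild type. In clone 1 replicate 2 the E2 list was the shorter, with 6542 against 50382 peaks, and in clone 3 replicate 2 it was the longer, with 49223 against 1619. Measured as base pairs covered, E2 minus DMSO in D538G was 2293 (exact permutation p = 0.0303, adjusted p = 0.0505). On that measure wild type had 4704, with an exact permutation p of 0.0286, the smallest that 4 against 4 libraries allow. Its adjusted p was the same as in D538G, so neither genotype was called.

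Single sites were no clearer in the D538G clones. None of the 10 sites tested reached an unadjusted Fisher's exact p under 0.05, against 0.0200% of the 44920 regions tested, and the smallest p in the window was 0.182. Sites 1 and 2 were present in 6 of 6 D538G E2 libraries, sites 10 and 11 in 5 of 6, site 5 in 4 and site 6 in 3. Site 12 had peaks in 4 of 6 libraries with E2. Within pairs, 2 to 5 sites had a peak only in the E2 list, and 0 to 2 only in the DMSO list.

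The effect of E2 on the number of window peaks was then compared between genotypes directly. The E2-minus-DMSO differences were 7, 9, 7 and 8 in the wild-type pairs and 3, 0, 4, 1, 6 and 0 in the D538G pairs. Every wild-type difference lay above every D538G difference. The mean was 7.75 ± 0.957 (SD, n = 4) in wild type and 2.33 ± 2.42 (SD, n = 6) in D538G, so the effect differed by -5.42 peaks (exact permutation p = 0.0143, adjusted p = 0.0357). This gap equals the genotype difference with E2 (-0.333) minus that under DMSO (5.08), so it is not separate from the DMSO result. The wild-type DMSO counts in it were 0 or 1, at the floor. Held to the 1000 strongest peaks of each list the gap was -0.25 and was not called. Without the 2 short wild-type DMSO lists it was -6.17 (adjusted exact permutation p = 0.0893). The unadjusted p there was 0.0357, the smallest that 6 against 2 pairs allow, so that alternative could not pass after adjustment. Over the 24 alternatives of the gap the adjusted p ran from 0.0119 to 0.886.

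With E2 in both genotypes, the number of window peaks did not separate them. Wild type held 8 ± 1.41 (SD, n = 4) and D538G 7.67 ± 2.88 (SD, n = 6), a difference of -0.333 with an exact permutation p of 0.9. The D538G libraries spanned 4 to 12 peaks and the wild-type libraries 7 to 10. None of the 10 sites tested passed an unadjusted Fisher's exact test in either direction, against 0.325% of 35729 regions bound more often and 0.890% bound less often in D538G. The smallest p in the window was 0.2.

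All 7 wild-type E2 sites were among the 10 D538G E2 sites held by at least 2 libraries, and they made up 70% of those 10. Over all regions of the genome, 68.2% of the 26600 wild-type E2 regions were D538G E2 regions, and the shared regions made up 75.15% of the 24132 D538G E2 regions. The other 3 D538G E2 sites at the locus were sites 4, 8 and 13, named here after their values were seen. Site 4 (chr11:100936795-100937171) and site 8 (chr11:101085890-101086293) had peaks in the same 3 libraries, both replicates of D538G clone 1 and replicate 1 of clone 3. Site 13 (chr11:101212287-101212746) had peaks in replicate 1 of those clones. They were weak within their lists: site 4 ranked between the top 44.9% and 99.3%, site 8 between 46.5% and 92.4%, and site 13 at 37.6% and 43.5%. Sites 3, 7 and 9 were each seen in 1 library, at the top 78.9%, 78.3% and 81.7%.

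Presence alone hides how strong a site was, so each peak was ranked by the authors' signal value within its own list, from the top 1% (strong) to 100% (weak). Ranks from lists of different lengths do not show a change, and they are given as descriptions without tests. Site 2 ranked at the top 11.1%, 22.8%, 32.8% and 21.4% in the wild-type E2 lists. In D538G it ranked between the top 2.75% and 48.9% under DMSO, with a median of 4.04%, and between 1.76% and 14.4% with E2, with a median of 4.83%. Site 2 was thus among the strongest peaks of 5 of the 6 D538G DMSO lists, and the exception was clone 3 replicate 2, the shortest of them at 1619 peaks.

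Site 1 was strongest in single lists with E2. It ranked at the top 5.22%, 35.4%, 11% and 9.86% in wild-type E2 lists. The best rank of any window peak was that of site 1 in D538G E2 clone 1 replicate 1, the top 1.04%, and site 1 ran up to 43.3% in the same group. Under DMSO its 5 D538G peaks lay between 14.5% and 31.5%. The spread within the D538G E2 group thus covered the ranges of the other groups.

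Sites 10 and 11 lie at the higher-coordinate end of the window. Site 10 ranked at the top 10.9%, 13.6%, 7.66% and 6.60% in wild-type E2 lists, between 19.1% and 46.8% in the 4 D538G DMSO lists that had it, and between 2.60% and 40.8% in 5 D538G E2 lists. Each of these D538G DMSO ranks of site 10 was thus weaker than each wild-type E2 rank, a pattern picked after the values were seen. How many regions of the genome separate in this way was not counted. Site 11 ranked at 31.0%, 85.2%, 29.8% and 70.7% in wild-type E2 lists and between 2.70% and 17.9% in 5 D538G E2 lists. Under DMSO its 4 D538G peaks ran from the top 13.4% to 99.6%, so it was near the bottom of some lists.

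**Figure D3:**
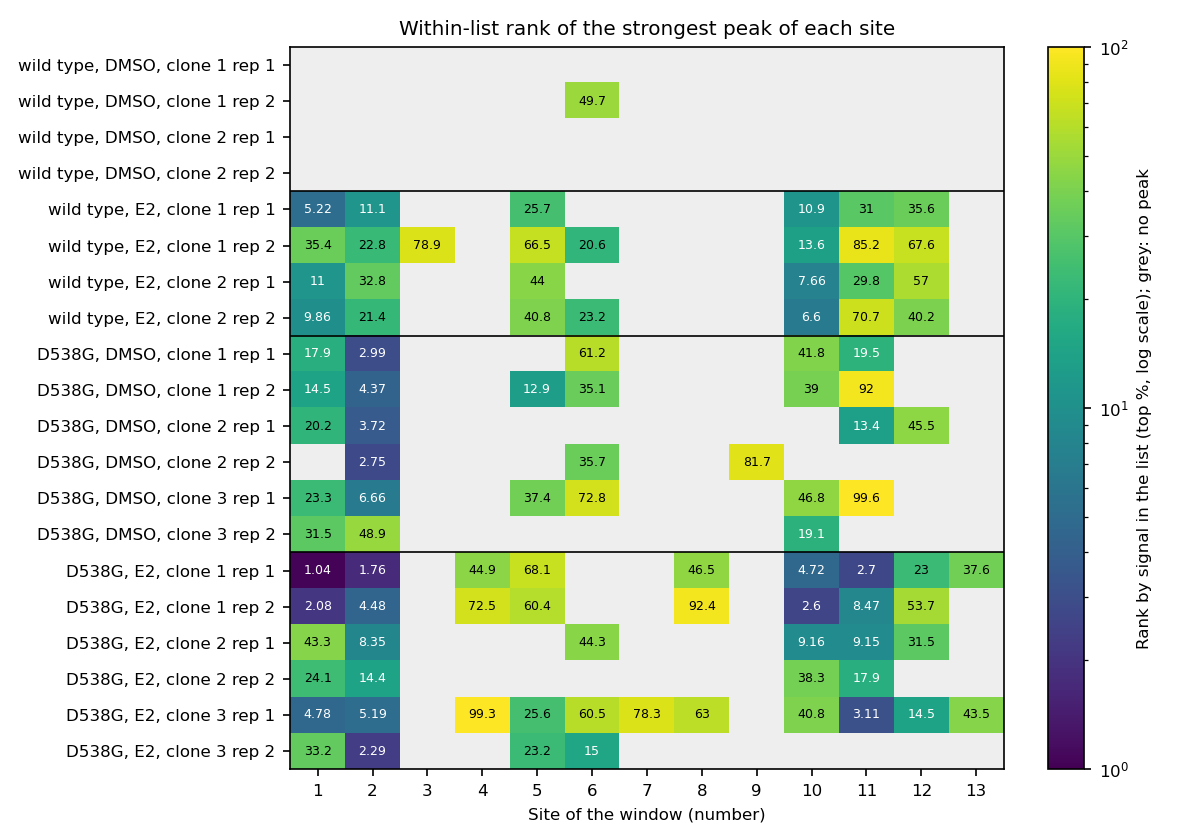
Rank by signal of the strongest peak of each site (columns, site number) within each library's list (rows), as top percent on a log colour scale with the value printed in the cell; grey means no peak. Site 2 is within the top 7% in 5 of 6 D538G DMSO lists and between 11.1% and 32.8% in the wild-type E2 lists.

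Within a single list the sites can be ordered directly by signal, and the site that led was not the same in each group. Site 2 was the strongest window site in 5 of 6 D538G DMSO lists, in 3 of 6 D538G E2 lists and in 0 of 4 wild-type E2 lists. Site 10 led in 3 of 4 wild-type E2 lists, and site 1 in the other one. In D538G E2 lists site 1 led in 2 and site 11 in 1. This pattern was chosen after the values were seen and has no test.

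The signal of site 2 divided by that of site 10 in the same list put the pattern on one scale. In wild type with E2 the ratio was between 0.485 and 0.989 (n = 4, median 0.602), so site 10 was the stronger in each library. In D538G with DMSO it was between 0.545 and 4.26 (n = 4, median 3.62), and 3 of these 4 lists lay above every wild-type value. In D538G with E2 it was between 0.820 and 3.53 (n = 5, median 1.35). The wild-type E2 range overlapped that of D538G with DMSO and that of D538G with E2. No wild-type DMSO library had either site, and the D538G lists without a peak at site 10 are missing from the ratio (2 with DMSO, 1 with E2).

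**Figure D4:**
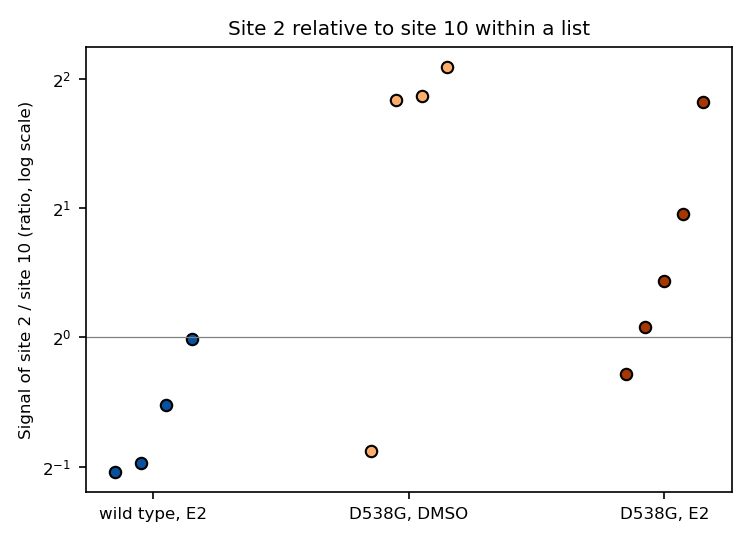
Signal of site 2 divided by signal of site 10 in the same list (y axis, log scale with base 2), 1 point per library that has both sites, by genotype and treatment. The grey line marks equal signal; the 4 wild-type E2 libraries lie between 0.485 and 0.989, and 3 of the 4 D538G DMSO libraries lie well above the line.

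The summit of a peak, the base of its highest signal, was reproducible at most sites. Over all libraries the summits of the strongest peak spanned 115 bp at site 1, 121 bp at site 2, 91 bp at site 10 and 168 bp at site 11. At these 4 sites the summits of D538G E2 and wild-type E2 libraries overlapped, with differences in mean of -11.1, -32.3, 17.1 and -8.95 bp. The exact permutation p-values for these differences were 0.676, 0.214, 0.238 and 0.825. The genotypes thus differed at these sites by less than the summits of 1 group differed among themselves.

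Site 5 stood apart from them. Its summits lay at 100973898, 100974013, 100973966 and 100974015 in the wild-type E2 libraries, and at 100973775, 100973775, 100973832 and 100973810 in the 4 D538G E2 libraries that had it. The groups did not overlap, and the D538G summits were on average 175 bp lower in coordinate (difference -175 bp, exact permutation p = 0.0286, the smallest that 4 against 4 allow; adjusted over the 6 sites p = 0.171). The D538G DMSO summits, 100973778 and 100973772, also lay below the wild-type range. The comparison was repeated for 3464 regions of the genome with peaks in 4 wild-type E2 and at least 4 D538G E2 libraries. In 2.17% of them the summits did not overlap between D538G E2 and wild-type E2, and in 0.577% they did so at least as far apart. The median difference over these regions was 17.1 bp. Site 5 had 4 D538G libraries, the fewest allowed. Full separation is less likely by chance with more libraries, so these shares are not those of regions with 4 against 4. The D538G peaks at site 5 came from clones 1 and 3, and none of the 4 clone 2 lists had a peak there.

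The peaks themselves still overlapped at site 5. The D538G E2 peak of clone 3 replicate 1 ran over chr11:100973614-100974153 and so covered both summit positions. Peaks at this site were 388 to 539 bp wide in wild type with E2 and 219 to 540 bp wide in D538G with E2. Their ranks were between the top 25.7% and 66.5% and between 23.2% and 68.1%, so the site was of middle or low strength in both.

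**Figure D5:**
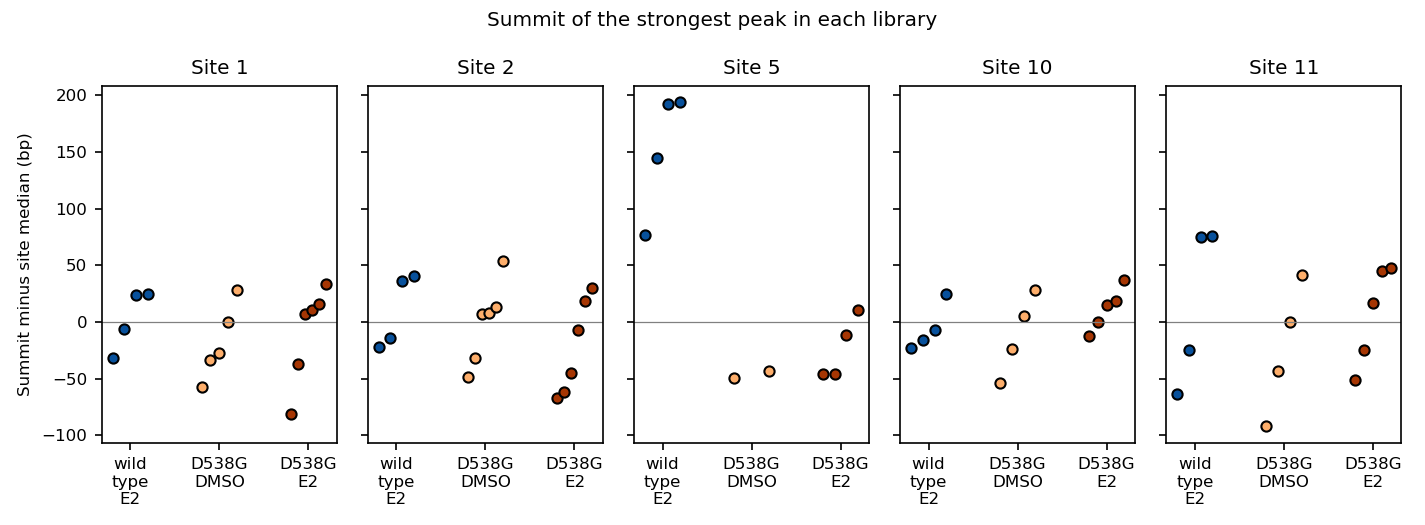
Summit of the strongest peak in each library relative to the median summit of the site (y axis, bp), for sites 1, 2, 5, 10 and 11 by genotype and treatment; each point is 1 library. The 4 wild-type E2 summits of site 5 lie above the D538G summits, whereas the groups overlap at the other sites shown; site 6, which has several summits, is left out.

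Site 10 was made of 2 summits. A lower and an upper summit, 623 to 742 bp apart, were called as separate peaks in 9 of the 13 libraries with the site, and the upper was the stronger in 9 of 9 by 1.35 to 4.35 times. These 9 libraries included 4 of 4 wild-type E2, 2 D538G DMSO and 3 D538G E2 lists. In both replicates of D538G clone 1 with E2, 1 peak of 1339 and 1449 bp ran over the span of both summits. In clone 1 replicate 1 and clone 3 replicate 1 with DMSO, the upper peak alone was called, 262 and 249 bp wide.

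Site 6 was the broadest site at 2751 bp, and it is the one that had a peak in a wild-type DMSO library. Its 15 peaks came from 10 libraries and fell into 5 groups of summits, each seen in 1 to 4 libraries. Single peaks there reached 2330 bp in D538G E2 clone 3 replicate 2, 1881 bp in wild-type E2 clone 1 replicate 2 and 1601 bp in wild-type E2 clone 2 replicate 2. It ranked between the top 15.0% and 72.8%. No comparison between groups reached an unadjusted Fisher's exact p under 0.05 at site 6.

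Outside the window, 188 regions had exactly the pattern of site 2, with peaks in all 16 libraries other than wild-type DMSO and none in those 4. They were 188 of the 460 regions with peaks in 16 libraries. The 3 of them with the strongest mean rank were chr8:22594910-22597584, chr5:72612848-72614000 and chr5:55884484-55886048, with mean ranks at the top 2.44%, 2.60% and 2.83%. The likeness is identity of presence over 20 libraries (Jaccard index of 1).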

How the data were processed

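FLAG-tagged ESR1 was profiled by ChIP-seq in 20 libraries, each with 1 list of peaks. The submitters' processing notes name Bowtie, MACS2, DESeq2 and the build hg19 without roles, and their versions and settings are not given in the sources used here. The deposited lists are in the narrowPeak layout and were called per library by the authors. The signal value of each peak is the authors' own, what it is relative to is not given in the sources used here, and it was used to rank peaks within a list and for the ratio of sites within a list. Each deposited −log10 p lay above 10 and served as a stricter threshold of 20. Peak names contain "Input" in the replicate 1 lists of D538G clones 1 and 2 and in no others, and how inputs entered the peak calling is not given in the sources used here. Read depth is unknown, so no interval for counting error could be given.

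A total of 5 peaks off chromosomes 1 to 22, X and Y were set aside. Peaks overlapping by at least 1 bp were merged, with the same result as bedtools 2.31.1. Summits are the authors' start plus offset, printed 1-based, and summits within 200 bp of each other were grouped. The members and lists were chosen with earlier results of these data known. Groups came from the labels. The main tests were exact two-sided permutation tests of window peak numbers over libraries, and Fisher's exact test per region with a peak in at least 2 compared libraries, adjusted by the Benjamini-Hochberg method over all regions at a threshold of 0.05. The Fisher test was tested on simulated lists. The summit test was added after the data were seen. Named sites are the 6 with peaks in the most libraries, with higher mean rank breaking ties, and the named regions elsewhere are the 3 most like site 2.

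E2 and DMSO libraries with the same number came from the same clone, which pairs them. The main tests of E2 against DMSO were unpaired, and the paired test was an alternative, whereas the difference in E2 effect used the pairs. The correlation of window peaks within pairs was 0.540 over 6 D538G pairs, and it was 0.943 over 4 wild-type pairs, where it rests on clone 1 replicate 2, the one DMSO library with a window peak. No 2 lists were copies: the largest share of identical intervals was 0.0306%. Alternatives were other measures of the window, stricter lists, clone means, the replicate block, single replicate numbers and leaving out libraries. Python 3.11.15 with numpy 2.4.6, pandas 2.3.3, scipy 1.17.1 and matplotlib 3.10.9 was used. No genome or annotation of hg19 was used here.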

Additional observations from a re-analysis of the deposited data

Results flagged for a closer look

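Among 38 groups of values searched for a sample far from its group, 3 had one, and chance alone flags about 1 in 20 groups of values without ties. The wild-type DMSO library of clone 1 replicate 2 stood apart in window peaks, with 1 against 0 in the 3 others, and in the percentage of its list that lay in the window, at 0.00343% against 0%. It is also the one long list of that group, with 29118 peaks against 45 to 1080. Both flags on this library come from the same single peak, and where the 3 others are 0 any other value is flagged. Site 2 in D538G DMSO clone 3 replicate 2 lay at the top 48.9% of its list, whereas the 5 other lists had it between 2.75% and 6.66%. That list was the shortest of its group with 1619 peaks. The effect of E2 on window peaks differed between genotypes by -5.42 peaks (D538G minus wild type, exact permutation p = 0.0143, adjusted p = 0.0357), and the E2 count was higher in 4 of 4 wild-type pairs and in 4 of 6 D538G pairs, with the other two equal.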

How the results depend on the processing

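Values below are differences in window peaks unless named otherwise. With the percentage of the list in the window, E2 minus DMSO in wild type was 0.0644, D538G minus wild type was 0.0786 under DMSO and 0.0268 with E2 (turned in sign), and the E2 effect differed by -0.0518 percentage points. With the 1000 strongest peaks these were 1.25, 1.33, 1.08 (turned) and -0.25. With the 5000 strongest, the wild-type effect was 4.5 and the difference in effect -3. In base pairs covered they were 4704 and -2411, and D538G minus wild type with E2 was 204.3 (turned). Clone means left 7.75, 5.08 and -5.42 uncalled (exact p = 0.333, 0.1 and 0.1, the smallest possible). Within replicate number 1 the values were 7, 5.33, 2.67 (turned) and -2.67, and within number 2 they were 8.5, 4.83, -3.33 and -8.17, so the genotype difference with E2 had opposite signs, with too few libraries to pass. The replicate block paired the libraries for E2 against DMSO, and for comparisons between genotypes it moved labels only within a replicate number. It gave 7.75 with an exact permutation p = 0.125, the smallest possible, for wild type and changed no other call on peak numbers. Without the wild-type DMSO lists of under 100 peaks, chosen after the data were seen, the 3 called differences were 7.5, 4.83 and -6.17, all uncalled. None of these could pass after adjustment, since each exact permutation p was already the smallest possible (0.0667, 0.0357 and 0.0357). Counting merged sites turned the genotype difference with E2 to 0.25, and leaving out libraries one at a time gave -1.2 to 0.4, with a turn to 0.333 without wild-type E2 clone 1 replicate 2, 0.2 without D538G E2 clone 2 replicate 2 and 0.4 without D538G E2 clone 3 replicate 2. Leave-one-out values of the called differences stayed called, at 7.08 to 8.08, 4.55 to 5.35 and -6.15 to -4.95. Sites passing an unadjusted Fisher's exact test for E2 against DMSO in wild type numbered 0 with the 1000 strongest peaks and 1 with the 5000 strongest. They numbered 0 with the replicate block (which 4 pairs cannot pass) and 0 without the short lists (which 4 against 2 libraries cannot pass). For D538G against wild type under DMSO they numbered 0, 1, 1 and 1, and 2 to 4 leaving out libraries. Site 11 turned to 66.7 and 33.3 percentage points more often bound in D538G with E2 under the 1000 and 5000 strongest peaks. The share of D538G DMSO sites in wild-type E2 was 50% with the 1000 strongest peaks. The cause of these changes was not tested. Another 238 values over all settings were classed as unchanged, by a rule for each kind of value. Differences in peak number kept their direction and their side of the threshold. Counts of sites passing, many of them 0 after adjustment, equalled or lay near the main count. Shares of sites stayed within the 95% interval of the main share, 54.1% to 100%. That binomial interval treats the 6 sites as independent and does not measure the spread between libraries.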
